A study of Mus musculus with 6 samples.

Results

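The genes described here are the mouse zinc finger genes numbered Zfp1 to Zfp499. They are the gene rows of the expression table with a symbol in that range, with or without a letter behind the number, chosen by a mean of at least 50 counts over the 6 libraries. Of 182 rows with such a number, 1 pseudogene and 2 opposite-strand transcripts were dropped, 12 were under 50 counts, and 167 of the 36210 gene rows remained. The mean count chose the members and the treatment contrast did not, but the group was proposed with earlier results of these data known. All libraries were made from brain of APP/PS1 mice aged 8 months, which carry human disease mutations in the genes of the amyloid precursor and of presenilin and develop plaques. The control group (vehicle, 3 libraries) received 0.9% saline and the treated group (3 libraries) received 10 mg per kg of AVE0991, a non-peptide drug that activates the angiotensin-(1-7) receptor Mas1, both intraperitoneally on each of 30 days. Both groups carry the APP/PS1 transgenes, and no wild-type library was part of the comparison. The comparison asks how RNA levels in the treated mice differed from those in the vehicle mice. Whether the libraries are from different animals is not stated in the labels, and every p-value therefore measures the spread between these libraries, which may be technical.

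Most proteins of this group bind DNA through arrays of C2H2 zinc fingers, short folds in which a pair of cysteines and a pair of histidines hold a zinc ion. Many carry a KRAB domain, which recruits the scaffold protein Trim28 and with it the histone methyltransferase Setdb1 and heterochromatin proteins, and these KRAB zinc finger proteins are best known for silencing transposable elements and for keeping methylation at imprinted loci. Other members have different work, among them the CCCH proteins Zfp36, Zfp36l1 and Zfp36l2, which bind AU-rich elements in messenger RNA and speed its decay.

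The 6 libraries held between 44583296 and 50066692 counts on gene rows, and all 167 genes passed the filter on low counts and were tested. Adult astrocytes are the cells named in the labels. The 14 astrocyte markers summed to between 8894 and 10385 CPM (counts scaled to a common library size) in the vehicle libraries and to between 10683 and 12312 CPM in the AVE0991 libraries, and neuron markers were also high, at 6500 to 7206 CPM and 6115 to 6768 CPM. In the treated group 2 libraries stood apart in cerebellar genes: 15 cerebellar markers summed to 338 to 358 CPM in the vehicle libraries and 362 CPM in AVE0991 library 1, but to 2752 CPM in library 2 and 2942 CPM in library 3. Oligodendrocyte markers, 12 in all, also differed within groups. They summed to 3928, 8394 and 8452 CPM in vehicle libraries 1 to 3. In AVE0991 libraries 1 to 3 they summed to 5864, 12387 and 6214 CPM. In bulk RNA fewer cells of a type and less RNA per cell cannot be told apart. The difference between the groups also went with the GC content of the transcript across genes, as described below.

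The promoters of 3 of the 7 genes that fell are shown as examples with and without one promoter motif, which the choice of members did not use. Each window runs from 250 bases before to 50 bases after the gene start, 5′ to 3′ on the gene's strand, taken from RefSeq on GRCm38.p6. Capitals mark a match to CCGGAAG, the core motif of ETS transcription factors, searched on both strands.
Zfp160 (chr17:21008691-21008990, plus strand): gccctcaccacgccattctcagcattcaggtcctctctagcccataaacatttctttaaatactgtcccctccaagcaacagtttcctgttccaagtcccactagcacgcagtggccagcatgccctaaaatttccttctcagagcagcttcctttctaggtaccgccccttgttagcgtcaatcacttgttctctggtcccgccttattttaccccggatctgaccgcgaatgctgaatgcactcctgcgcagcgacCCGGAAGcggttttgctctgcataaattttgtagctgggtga
Zfp141 (chr7:42505704-42506003, minus strand): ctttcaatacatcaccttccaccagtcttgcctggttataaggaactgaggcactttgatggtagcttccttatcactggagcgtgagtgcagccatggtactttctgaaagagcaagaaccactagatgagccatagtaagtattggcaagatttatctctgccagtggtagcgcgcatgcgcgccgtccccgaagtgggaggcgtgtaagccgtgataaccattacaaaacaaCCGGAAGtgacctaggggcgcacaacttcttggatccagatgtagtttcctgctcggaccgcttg
Zfp101 (chr17:33394588-33394887, minus strand): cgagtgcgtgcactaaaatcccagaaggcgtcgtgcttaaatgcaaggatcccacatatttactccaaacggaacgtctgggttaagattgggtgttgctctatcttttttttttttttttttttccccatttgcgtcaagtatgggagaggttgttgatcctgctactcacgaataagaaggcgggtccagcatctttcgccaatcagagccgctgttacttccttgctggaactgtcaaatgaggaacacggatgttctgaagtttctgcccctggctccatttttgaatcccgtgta
The windows of Zfp160 and Zfp141 held the ETS letters once each, and the windows of the other 5 genes that fell, Zfp101 among them, did not hold them. RefSeq gave 169 such windows for 136 of the 167 genes, and 37 of the 136 had CCGGAAG in a window. It was in 23.7% of the windows, against 11.5% of the 21094 windows of other protein-coding genes and 8.86% of all 32851 windows. ACTACAA, the core of the ZNF143 motif, was in 9.47% of the windows of these genes and in 3.55% of those of other protein-coding genes. The NRF1 motif (10 letters) was in 4.14% and 1.31%, and the YY1 motif AAGATGGC in 5.92% and 3.03%. These shares of the zinc finger genes rest on 7 and 10 windows. The GC box, GGGCGG, was in 43.2% and 46.2%, and the CCAAT box in 42.0% and 38.2%. The CRE motif, TGACGTCA, was in 2.96% and 2.23%. The TATA box, TATAAA, was in 10.1% and 12.6%, and the median GC content of the windows was 55.7% and 56.3%. All motifs were searched on both strands, a match describes letters only, and the shares were not tested.

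After AVE0991, 7 of the 167 genes fell and 0 rose at an adjusted p under 0.05 (edgeR, Benjamini-Hochberg over all 20363 genes tested), while over all genes tested 0.83% were called lower and 0.0344% higher. The genes that fell were Zfp160, Zfp62, Zfp322a, Zfp141, Zfp81, Zfp37 and Zfp101. At an unadjusted p under 0.05, 56 of the 167 were lower and 17 higher, against 12.7% and 10.9% of all genes. The CPM values of the groups did not overlap, with AVE0991 lower, for 64 of the 167, or 38.3%, against 16.3% of all genes, and with AVE0991 higher for 22, against 14.3%. The log2 fold change of AVE0991 over vehicle was below 0 for 116 of the 167 genes, or 69.5%, against 50.7% of all genes. Its median was -0.14, beside -0.01 over all genes tested. Relative to the vehicle mean, the median of the 167 genes was -0.16, -0.21 and -0.13 in AVE0991 libraries 1 to 3 and 0.04, -0.02 and -0.01 in the vehicle libraries. The 3 treated libraries were thus all below the 3 vehicle libraries in this median. Changes were mostly modest, since 12 genes were at least 2-fold lower, of which 4 passed the test, and 1 gene, Zfp385c, was at least 2-fold higher and did not pass it.

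**Figure D1:**
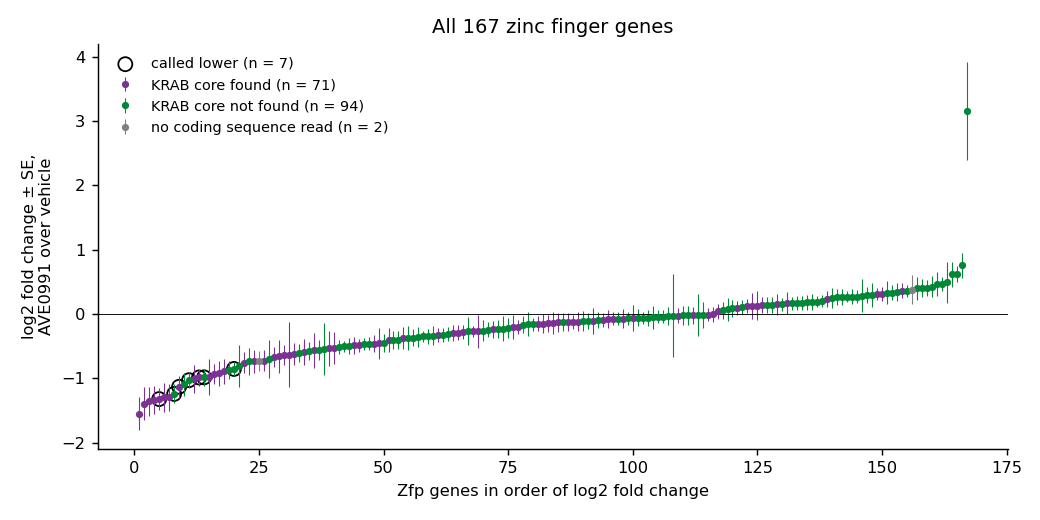
Log2 fold change of AVE0991 over vehicle ± SE for the 167 zinc finger genes, in order from lowest to highest, coloured by whether the KRAB core was found in the translated protein. The 7 circled genes passed the test; 116 points are below 0, and the point at the far right is Zfp385c.

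The KRAB box was found in 3 of the 7 genes that fell by its core pattern, and in Zfp160 by a broader pattern. Zfp81 was at 10.4, 7.51 and 7.79 CPM in vehicle libraries 1 to 3 and at 3.53, 3.20 and 3.52 CPM in AVE0991 libraries 1 to 3. Every treated library was below the lowest vehicle library, and the mean dropped 2.50-fold, with a log2 fold change of -1.32 (SE 0.18, adjusted p = 0.043 by edgeR). Its protein has 11 C2H2 fingers. Zfp101 was at 16.6, 15.9 and 14.0 CPM in vehicle and at 5.78, 6.75 and 8.72 CPM in AVE0991, again without overlap, and had a log2 fold change of -1.13 (SE 0.17, adjusted p = 0.048). Its window and that of Zfp81 are on the same chromosome. Zfp141, with 10 fingers, was at 13.7, 11.6 and 12.3 CPM in vehicle and at 6.34, 5.79 and 6.81 CPM in AVE0991. The groups did not overlap, and the log2 fold change was -0.99 (SE 0.13, adjusted p = 0.043). Zfp160, with 18 fingers, was at 10.6, 8.57 and 8.76 CPM in vehicle and at a narrow 3.81, 3.92 and 4.09 CPM in AVE0991, a 2.37-fold drop (log2 fold change -1.24, SE 0.15, adjusted p = 0.037).

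The other 3 genes that fell, Zfp62, Zfp322a and Zfp37, matched neither KRAB pattern. Zfp62 has 25 fingers and was the highest of the 7 per length, at 8.25 ± 0.16 FPKM (the authors' level per transcript length, SD, n = 3) in vehicle and 3.74 ± 0.52 FPKM in AVE0991. It was at 33.1, 32.6 and 33.5 CPM in vehicle and at 15.1, 14.5 and 19.0 CPM in AVE0991. The vehicle libraries lay close together, no treated library reached them, and the log2 fold change was -1.03 (SE 0.13, adjusted p = 0.037 by edgeR). Zfp322a, the only one of the 7 with fewer than 10 fingers, was at 16.5, 15.3 and 15.8 CPM in vehicle and at 9.29, 8.75 and 8.24 CPM in AVE0991 (log2 fold change -0.85, SE 0.11, adjusted p = 0.038). Zfp37 was at 11.0, 10.5 and 10.4 CPM in vehicle and at 5.90, 5.42 and 4.81 CPM in AVE0991 (log2 fold change -0.99, SE 0.13, adjusted p = 0.043). Neither gene had overlapping groups.

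**Figure D2:**
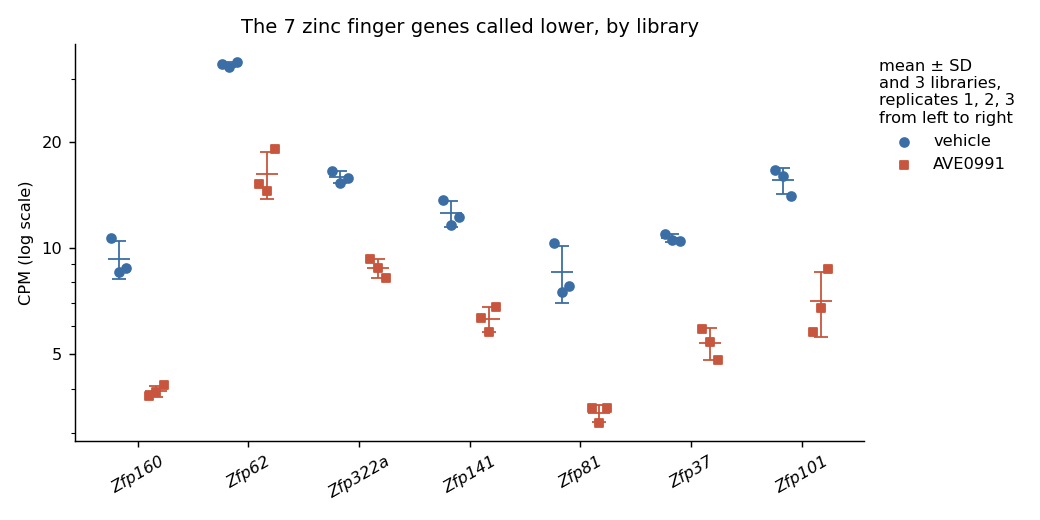
CPM on a log axis of the 7 genes that fell, in vehicle (circles) and AVE0991 (squares) libraries, with the mean and SD of 3 libraries. In each gene the 3 AVE0991 libraries are all below the 3 vehicle libraries; for Zfp62 they are at 14.5 to 19.0 CPM against 32.6 to 33.5 CPM.

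These 7 calls changed with the libraries kept and with a correction for GC content. Without AVE0991 library 1 the adjusted p of the 7 ran from 0.0094 to 0.017. Leaving out any other single library left it at 0.096 or more for each of them, so that 0 of the 167 genes passed. In those fits 0 of all genes tested passed in either direction. Without AVE0991 library 1, 23 genes passed lower and 8 higher, against 4.76% and 6.63% of all genes, and among genes of at least 1 CPM 16 passed lower, against 2.09%. After a correction of each library for transcript GC content 0 of the 167 passed as well, where 0.0% of all genes were called lower and 0.00491% higher, and at an unadjusted p under 0.05 24 were lower and 15 higher, against 7.47% and 7.83% of all genes. The log2 fold changes of the 7 then ran from -0.79 for Zfp101 to -0.30 for Zfp322a. DESeq2 called 40 genes lower and 7 higher, against 6.5% and 4.88% of all genes, and limma-voom called 24 and 4, against 3.54% and 2.2%. All 7 genes were among the lower calls of both.

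The next genes by p just missed the threshold. Zfp273, a KRAB gene, was at 3.68, 3.09 and 2.73 CPM in vehicle and at 1.18, 1.31 and 1.38 CPM in AVE0991 (log2 fold change -1.30, SE 0.21, adjusted p = 0.051 by edgeR). Zfp40, also with the KRAB core, was at 11.4, 7.94 and 8.78 CPM and at 4.35, 2.87 and 3.90 CPM (-1.34, SE 0.22, adjusted p = 0.051). Zfp329, in which no KRAB core was found, was at 22.8, 17.1 and 18.4 CPM and at 9.81, 10.4 and 11.6 CPM (-0.87, SE 0.14, adjusted p = 0.051). In each of these 3 genes the groups did not overlap, and vehicle library 1 was the highest. Zfp433 had the lowest log2 fold change of all 167 genes, -1.55 (SE 0.26, adjusted p = 0.051), and is named for that reason. It shares 86.7% of the 100-base windows of its longest transcript with the gene model Gm32687, so its counts are uncertain. In all, 22 genes shared 10% or more of such windows with another gene, and none of the 7 genes that fell was among them.

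The KRAB core was found in 71 of the 165 genes with a coding sequence. Of these, 3 fell and 0 rose, 59 (83.1%) were below 0, and the median log2 fold change was -0.28. Of the 94 genes without the core, 4 fell and 0 rose, 56 (59.6%) were below 0, and the median was -0.06. Over all genes tested 0.83% were called lower and 0.0344% higher, and 50.7% were below 0. The median of the KRAB genes relative to the vehicle mean was -0.28, -0.28 and -0.22 in AVE0991 libraries 1 to 3, and that of the genes without the core was -0.01, -0.04 and -0.05. Transcripts of the KRAB genes also had less GC, with a median of 43.6% against 47.1%, and lower levels, with a median of 2.43 FPKM against 5.43 FPKM. Among transcripts of up to 40% GC the median log2 fold change was -0.93 for 19 KRAB genes and -0.85 for 11 genes without the core, and from 40% to 45% it was -0.36 for 24 and -0.35 for 25. From 45% to 50% it was -0.07 for 19 and -0.06 for 28, and from 50% to 55% it was 0.03 for 8 and 0.17 for 11. With the GC correction the medians were -0.41 and -0.30 at up to 40% GC, -0.08 and 0.04 from 40% to 45%, -0.02 and -0.06 from 45% to 50%, and -0.08 and 0.03 from 50% to 55%. The KRAB genes thus had the lower corrected median in 3 of these 4 ranges, a difference for which no test was made. With the broader KRAB pattern 82 genes had a median of -0.29 and 83 had -0.03. Among KRAB genes with at least 200 counts the median was -0.15.

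The number of fingers went with the fold change. Of 90 genes with 10 or more C2H2 fingers, 6 fell, and of 75 with fewer, 1 fell, against 0.83% of all genes tested. Their median log2 fold changes were -0.22 and -0.10. After the GC correction these medians were -0.11 and 0.08. Across the 165 genes the Spearman correlation of finger number with the log2 fold change was -0.29, and -0.30 with the GC-corrected one; all points come from the same 6 libraries. The 10 genes with a SCAN domain, a dimerization domain, had a median of -0.15, and 0 of them passed.

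Of GC content, length, finger number and level, GC content ordered the zinc finger genes most closely. The Spearman correlation of the log2 fold change with transcript GC content was 0.81 across 165 genes, and 0.49 across 16698 other genes, as a description across genes of the same 6 libraries. Length had -0.05 and mean FPKM 0.43. All 30 genes of up to 40% GC were below 0, 5 of them fell, and their median was -0.90. Of 964 other genes in that range 91.2% were below 0, 87 fell, and the median was -0.54. From 40% to 45% GC, 45 of 49 genes were below 0 with a median of -0.35. Of other genes in that range 78.1% were below 0, with a median of -0.26. The medians were -0.06 and -0.02 from 45% to 50%, and 0.14 and 0.13 from 50% to 55%. Above 55% GC, 20 of 21 zinc finger genes were above 0, none passed, and the median was 0.34. Of 3855 other genes in that range 2913 were above 0, and their median was 0.19. The median of the zinc finger genes was thus below that of other genes in the lowest GC range and above it in the highest, a difference for which no test was made.

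**Figure D3:**
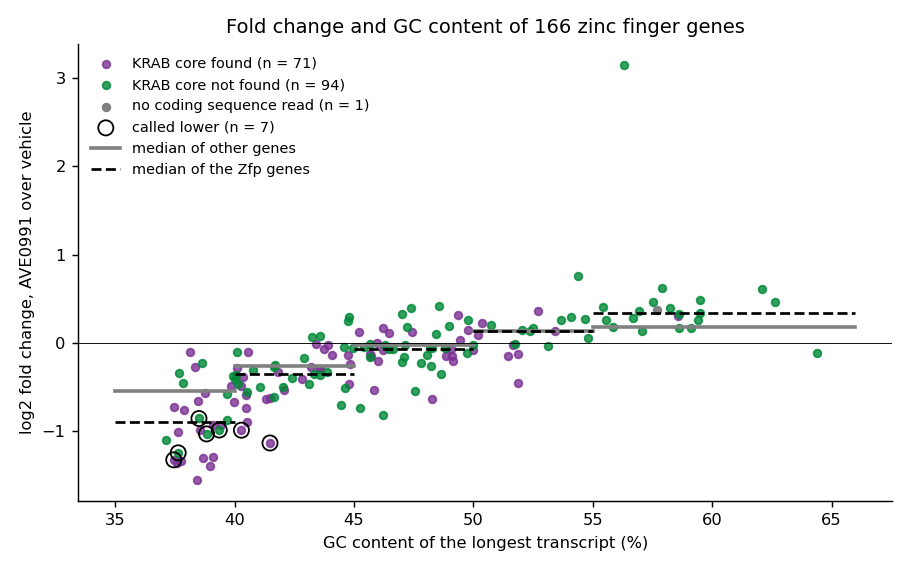
Log2 fold change of AVE0991 over vehicle against the GC content of the longest transcript for the 166 zinc finger genes with a GC value, coloured by the KRAB core. Dashed lines are the medians of the zinc finger genes in 5 GC ranges and grey lines those of other genes; at up to 40% GC the medians are -0.90 and -0.54, above 55% they are 0.34 and 0.19.

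The GC correction removed the slope of other genes, whose medians came to 0.00 at up to 40% GC and -0.02 above 55%. It left part of that of the zinc finger genes, whose median was -0.40 at up to 40% GC, -0.06 from 40% to 45% and 0.13 above 55%. By library, the corrected median of the 30 genes of lowest GC was -0.35, -0.32 and -0.34 in AVE0991 libraries 1 to 3, and 0.07, 0.00 and -0.05 in the vehicle libraries. The 3 treated libraries were close together and below the vehicle libraries, and their cerebellar marker sums were 362, 2752 and 2942 CPM. The part of cerebellar RNA in these medians was not tested. No gene of this range passed the test with the correction. Over all 167 genes the median with the correction was -0.04, beside -0.02 over all genes tested. The correction also takes up any difference between the groups that follows GC content. The part of GC content in the calls was not tested beyond this correction.

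**Figure D4:**
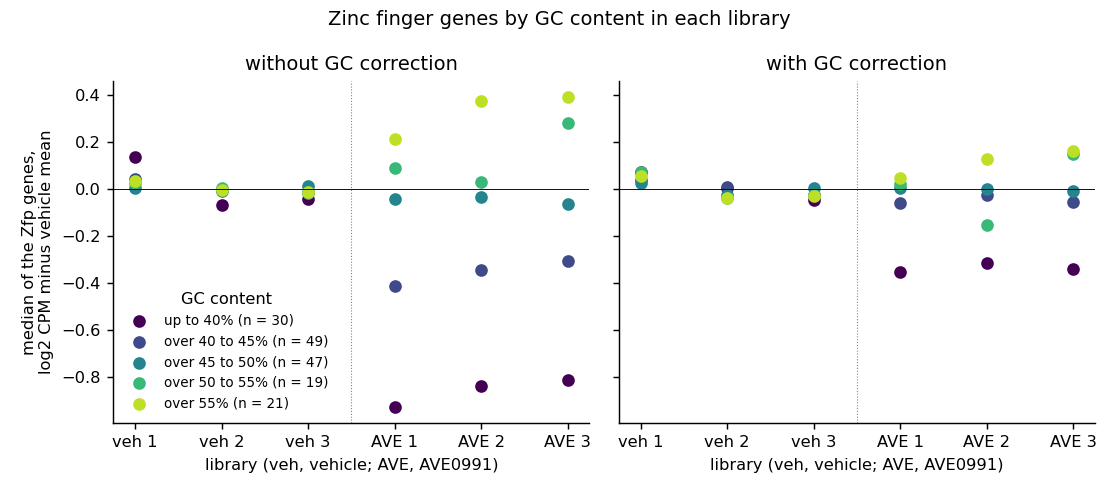
Median of the zinc finger genes in each of 5 GC ranges, as log2 CPM minus the vehicle mean, in the 6 libraries, without (left) and with (right) the GC correction. At up to 40% GC the 3 AVE0991 libraries are at -0.93 to -0.81 without and at -0.35 to -0.32 with the correction.

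No gene rose, and the 10 genes of smallest p above 0 had adjusted p-values from 0.072 to 0.148. Zfp467, a regulator of the choice between bone and fat cells, was at 24.7, 27.5 and 30.8 CPM in vehicle and at 37.8, 44.1 and 46.0 CPM in AVE0991 (log2 fold change 0.62, SE 0.13, adjusted p = 0.072 by edgeR). Zfp362 was at 24.1, 22.4 and 21.4 CPM and at 28.9, 30.7 and 34.0 CPM (0.46, SE 0.10, adjusted p = 0.087). Both had groups that did not overlap. Zfp385c, a member of a small family of zinc finger proteins that includes Zfp385a, was at 1.76, 1.66 and 1.73 CPM in vehicle and at 2.61, 17.1 and 26.3 CPM in AVE0991. AVE0991 libraries 2 and 3, the ones with the high cerebellar marker sums, were far above library 1, and the log2 fold change was 3.15 (SE 0.76, adjusted p = 0.10). With library 1 as the only treated library it was 0.61 (adjusted p = 0.431), and without library 1 it was 3.66 (adjusted p = 0.0019). Zfp395 and Zfp219 were also highest in those libraries: Zfp395 was at 30.9, 52.2 and 41.8 CPM and Zfp219 at 62.8, 97.6 and 97.8 CPM in AVE0991 libraries 1 to 3, against at most 26.4 and 63.4 CPM in vehicle. The part of cerebellar RNA in these values was not tested. Of the other genes among the 10, Zfp358, Zfp316, Zfp319, Zfp61 and Zfp282 had log2 fold changes from 0.27 to 0.41, and their groups did not overlap.

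**Figure D5:**
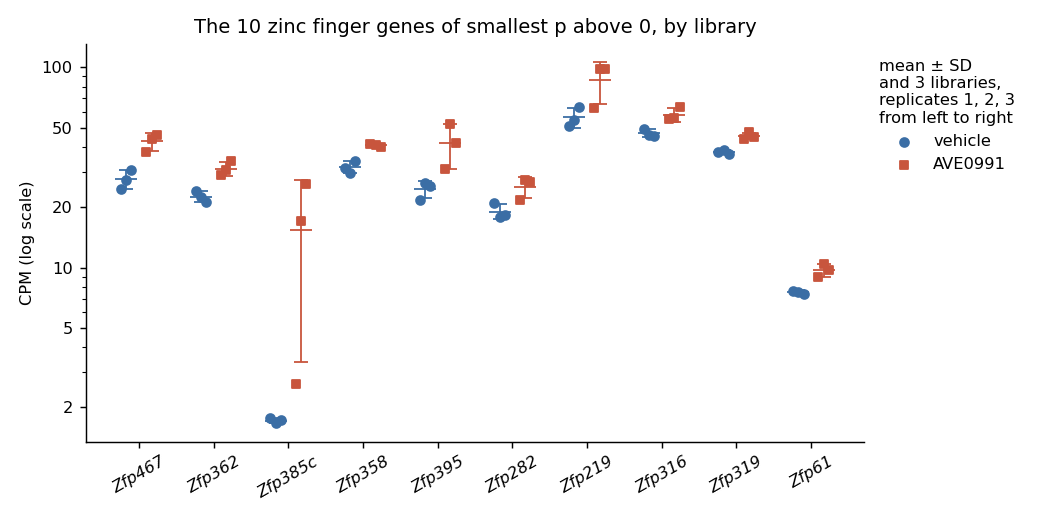
CPM on a log axis of the 10 zinc finger genes of smallest p above 0, none of which passed the test, with the mean and SD of 3 libraries per group. Zfp385c is at 2.61 CPM in AVE0991 library 1 and at 17.1 and 26.3 CPM in libraries 2 and 3.

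Levels per length ran from 0.332 to 77.2 FPKM over the 167 genes, with a median of 3.73 FPKM. Zfp365, which encodes a DISC1-binding protein of neurons, was the highest at 93.4 ± 19.0 FPKM in vehicle and 61.0 ± 32.9 FPKM in AVE0991 (SD, n = 3). Its CPM was 476, 315 and 358 in vehicle and 395, 124 and 269 in AVE0991, so the groups overlapped, library 2 of AVE0991 was the lowest, and the log2 fold change of -0.55 (SE 0.40) did not pass. Zfp385a, a p53 cofactor, followed at a mean of 45.4 FPKM over the 6 libraries, then Zfp106, an RNA-binding protein needed in motor neurons, at 37.5 FPKM, Zfp236 at 35.2 FPKM and Zfp207, a spindle and microtubule protein, at 30.8 FPKM. The SDs of Zfp365 spanned its distance from Zfp385a in the treated group. None of the 8 genes of highest FPKM passed; Zfp91, which encodes a ubiquitin ligase, came nearest, at 134, 130 and 140 CPM in vehicle and 102, 106 and 109 CPM in AVE0991 (log2 fold change -0.35, SE 0.09, adjusted p = 0.104 by edgeR). The CV between libraries had a median of 7.95% in vehicle and 11.7% in AVE0991.

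None of the members named for a textbook role passed the test. Zfp57 and Zfp445, KRAB proteins that keep methylation at imprinted loci, had log2 fold changes of -0.53 (SE 0.25, adjusted p = 0.255 by edgeR) and -0.35 (SE 0.12, adjusted p = 0.155). Zfp57 was at 1.90, 2.43 and 2.33 CPM in vehicle and 1.89, 1.55 and 1.16 CPM in AVE0991, and Zfp445 at 83.7, 72.6 and 78.5 CPM and at 53.1, 67.0 and 64.4 CPM. The treated libraries of both genes lay below the vehicle libraries, though for Zfp57 the nearest were 1.89 and 1.90 CPM. Zfp281, a repressor in the pluripotency network, was at 30.4, 30.5 and 27.7 CPM and at 23.4, 19.9 and 21.1 CPM (-0.46, SE 0.10, adjusted p = 0.086). Zfp423, a transcription factor of cerebellar and fat cell development, was at 59.5, 85.9 and 101 CPM and at 94.9, 128 and 77.6 CPM, with overlapping groups. Zfp488, which promotes oligodendrocyte differentiation, had a log2 fold change of -0.26 (SE 0.17), and the oligodendrocyte markers summed to 3928 to 8452 CPM in vehicle and 5864 to 12387 CPM in AVE0991. Zfp335, needed for the growth of neural progenitors, had 0.27 (SE 0.12), and neither of the pair passed.

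The CCCH genes of messenger RNA decay did not pass the test. Zfp36, known as tristetraprolin, was at 5.75, 5.15 and 6.31 CPM in vehicle and at 5.50, 7.90 and 7.74 CPM in AVE0991. Zfp36l1 was at 36.8, 35.5 and 37.1 CPM and at 42.9, 39.9 and 41.8 CPM, and Zfp36l2 at 50.3, 42.3 and 53.2 CPM and at 56.8, 47.3 and 47.5 CPM. Only Zfp36l1 had groups that did not overlap, with a log2 fold change of 0.19 (SE 0.08, adjusted p = 0.231 by edgeR), and 51.5% of its 100-base windows are shared with the gene model Gm26669. Of 24 other genes of this decay pathway, such as deadenylase and decapping subunits, 0 passed. Over all genes tested 0.83% were called lower and 0.0344% higher. At an unadjusted p under 0.05, 5 of the 24 were lower and 4 higher, against 12.7% and 10.9% of all genes. The groups did not overlap for 25% with AVE0991 lower and 33.3% with AVE0991 higher, against 16.3% and 14.3% of all genes. The median of the 24 genes was 0.06. The lowest p belonged to Rc3h2, which encodes a relative of roquin, at a log2 fold change of -0.46 (SE 0.09, adjusted p = 0.066), and to the deadenylase gene Cnot6l, at -0.61 (SE 0.12, adjusted p = 0.068).

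Partners of the KRAB domain did not pass either. Of 28 measured co-repressor genes out of 29 listed, 0 passed with edgeR, where 0.83% of all genes tested were called lower and 0.0344% higher. At an unadjusted p under 0.05, 7 were lower and 6 higher, against 12.7% and 10.9% of all genes. The groups did not overlap for 28.6% with AVE0991 lower and 35.7% with AVE0991 higher, against 16.3% and 14.3% of all genes. The median log2 fold change was 0.07. Trim28, the scaffold that binds the KRAB box, was at 125, 136 and 127 CPM in vehicle and at 155, 153 and 162 CPM in AVE0991. Its groups did not overlap, with a log2 fold change of 0.28 (SE 0.09, adjusted p = 0.141). Setdb1, which places the H3K9 methyl mark, had 0.11 (SE 0.09). Fam208a, a subunit of the HUSH silencing complex, was at 57.4, 47.4 and 48.3 CPM and at 25.6, 27.6 and 35.2 CPM (-0.79, SE 0.15, adjusted p = 0.064). Cbx5, which encodes a heterochromatin protein, was at 283, 278 and 276 CPM and at 219, 214 and 209 CPM (-0.38, SE 0.09, adjusted p = 0.091). Fam208a and Cbx5 had 38.9% and 42.6% GC and Trim28 59.6%.

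Zinc finger genes often lie in clusters. Among the named protein-coding genes of the RefSeq table, 35 of the 167 formed 9 runs of 3 or more neighbours. Coding genes with symbols such as Gm, LOC or Rik ones were left out before runs were sought, so a run can span them. In the run Zfp51, Zfp53 and Zfp52 the median log2 fold change was -0.93, and the groups overlapped in 0 of the 3 genes. Zfp53 was the nearest to the threshold, at 6.13, 6.89 and 5.98 CPM in vehicle and 3.03, 3.35 and 3.59 CPM in AVE0991 (-0.93, SE 0.15, adjusted p = 0.051 by edgeR). The run Zfp26, Zfp426 and Zfp266 had a median of -0.49 and the run Zfp397, Zfp35 and Zfp24 one of -0.33, both also without overlap in any gene. The groups did not overlap, with AVE0991 lower, in 16.3% of all genes. Among other genes the share was 62.2% at up to 40% GC and 38.1% from 40% to 45%, and the 3 runs had a median GC of 39.4%, 40.3% and 40.8%. With the GC correction the median log2 fold changes of these 3 runs were -0.44, -0.06 and 0.04. The longest run, 10 genes from Zfp180 to Zfp94, had a median of -0.07 and a median GC of 49.2%. The run Zfp398, Zfp282 and Zfp212, at a median GC of 54.7%, had a median of 0.27. The run of lowest GC thus had the lowest median and the run of highest GC the highest. Of the 35 genes in the 9 runs 0 passed, where 0.83% of all genes tested were called lower and 0.0344% higher.

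The 184 genes numbered Zfp500 to Zfp999 with at least 50 counts included 19 that fell and 0 that rose. Of all genes tested 0.83% were called lower and 0.0344% higher, and of the 167 genes 7 fell. The median log2 fold change of the 184 genes was -0.25, or -0.07 with the GC correction, and their median GC was 43.6%. The authors' deposited table gave 33 of the 167 genes, or 19.8%, as lower at a q under 0.05 and 4, or 2.40%, as higher, against 2.93% and 1.78% of all gene rows. In the authors' deposited table the higher ones were Zfp467, Zfp385c, Zfp362 and Zfp395. Just inside the count minimum were Zfp296, Zfp69 and Zfp184, at means of 51.7, 60.2 and 64.5 counts, and just outside were Zfp493, Zfp459 and Zfp429, at 48.8, 45.2 and 37.3 counts.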

How the data were processed

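RNA of 6 brain libraries labelled as adult astrocytes was measured, 3 per group; per the labels' protocols it was depleted of ribosomal RNA and copied with dUTP in the second strand. HISAT and mm9 are the aligner and genome build per the submitters' processing notes; not given in the sources used here are the counting step, its annotation and its strand setting. The deposited table held estimated counts per gene, of which 81.6% were whole, and the authors' FPKM values, a unit worked out from the values. A second deposited table gave the authors' log2 fold change with a p-value and a q-value, which per the file headers came from DESeq2.

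The estimated counts were rounded and fitted in R 4.3.3 with edgeR 4.0.16 (filterByExpr, TMM, robust quasi-likelihood F test, no covariates); 20363 genes were tested, with Benjamini-Hochberg adjustment over all of them. The SE was taken as the size of the log2 fold change over √F, and CPM uses TMM library sizes. The common biological coefficient of variation was 24.7%, with a median prior df of 2.93. No pair of libraries agreed within counting noise, and each was taken as its own replicate. The test was checked on simulated counts drawn with the dispersions of these libraries. The GC correction fitted, in each library, a lowess curve (span 0.3) of the deviation in log2 CPM (prior count 2) on GC content and used it as an offset. GC content was that of the longest GENCODE M21 transcript (GRCm38), matched for 166 of the 167 genes. KRAB, SCAN and finger patterns were searched in GENCODE coding sequences, translated, for 165 genes, in place of the RefSeq proteins first planned; the KRAB core was Y, any residue, any residue, V, M, any residue, E. GRCm38 was used only for names, gene order, sequence features and promoter windows, never with mm9 coordinates. Alternatives used DESeq2 1.42.0, limma 3.58.1 voom, other scaling and filters, fits without libraries, and a replicate block.

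The members, lists, tests and alternatives were chosen with earlier results of these data known, and the broader KRAB pattern after the matches of the core pattern were seen. Named genes were the ones called, the 10 of smallest p per direction, the 8 of highest FPKM, members of textbook role, runs of neighbours, genes beside the count minimum and up to 4 per list. Circular RNA rows carry no host gene and were not analysed here.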

Additional observations from a re-analysis of the deposited data

How the results depend on the processing

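The count of 7 lower genes became 14 with no filter on low counts, 16 with a mean of at least 1 CPM, 24 with limma-voom and 40 with DESeq2, and 0 without AVE0991 libraries 2 and 3, with the GC correction, with the replicate block, with the replicate block and GC correction together, and with circular RNA rows in the same fit; leaving out 1 library gave 0 to 23, with 23 only without AVE0991 library 1. The 0 higher genes became 1 with no filter, 4 with limma-voom, 7 with DESeq2 and 0 to 8 without 1 library. In the same order the 0 co-repressor genes became 1, 3, 5 and 0 to 3. Over all genes, 379 of 33731 were called lower and 58 higher with no filter, and 2.09% lower and 0.114% higher at 1 CPM. Of all genes tested, 0 were called in either direction with the replicate block, or without any 1 library other than AVE0991 library 1. With circular RNA rows in the same fit, 1 gene of all was called lower and 1 higher. Shares lower and higher were 3.54% and 2.2% with limma-voom, 6.5% and 4.88% with DESeq2, and 4.76% and 6.63% without AVE0991 library 1. Replicate numbers did not pair the libraries (same-numbered deviations correlated at -0.02, 0.09 and -0.35); with the block the smallest adjusted p was 0.122 and 47 genes were lower and 16 higher at an unadjusted p under 0.05, against 11.1% and 8.26% of all genes. The median of -0.14 was -0.038 with the GC correction, -0.040 with block and GC correction, and -0.18 to -0.12 without 1 library. The KRAB median of -0.28 was -0.11 with the GC correction, -0.11 with block and GC correction, -0.25 with limma-voom and -0.15 at 200 counts or more. The median without the KRAB core, -0.06, was -0.080 at 1 CPM, -0.0082 without AVE0991 libraries 2 and 3, 0.027 with the GC correction, 0.025 with block and GC correction, -0.083 with limma-voom and -0.084 to -0.032 without 1 library. The causes were not tested.

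Genes that did not pass changed sign under some settings; the cause was not tested. Without AVE0991 libraries 2 and 3 the log2 fold changes were Zfp365 0.054, Zfp36 -0.052, Zfp217 0.34, Zfp454 -0.076, Zfp180 0.080, Zfp112 0.13, Zfp94 0.070, Zfp27 0.0025, Zfp296 -0.15. With the GC correction they were Zfp207 0.092, Zfp148 0.089, Zfp36l2 -0.12, Zfp326 0.31, Zfp318 0.071, Zfp397 0.040, Zfp24 0.089, Zfp398 0.063, Zfp128 0.047, Zfp111 0.21, Zfp93 0.079, Zfp74 0.16. With the replicate block and the GC correction they were Zfp207 0.090, Zfp148 0.064, Zfp36l2 -0.12, Zfp326 0.31, Zfp318 0.069, Zfp397 0.032, Zfp24 0.093, Zfp398 0.060, Zfp128 0.041, Zfp111 0.21, Zfp93 0.082, Zfp74 0.16. With RLE size factors they were Zfp217 6.4e-05, Zfp111 0.0030, Zfp93 0.0087. With no filter on low counts they were Zfp217 0.0020, Zfp111 0.0084, Zfp93 0.015. With DESeq2 they were Zfp217 0.00053, Zfp111 0.0034, Zfp93 0.0090. With limma-voom they were Zfp398 0.0015, Zfp111 0.010, Zfp93 0.055. Without 1 library the ranges were Zfp36l2 -0.035 to 0.13, Zfp217 -0.23 to 0.13, Zfp454 -0.041 to 0.28, Zfp398 -0.086 to 0.043, Zfp180 -0.21 to 0.0092, Zfp112 -0.19 to 0.0020, Zfp111 -0.037 to 0.041, Zfp109 -0.25 to 0.10, Zfp93 -0.047 to 0.078, Zfp27 -0.13 to 0.043, Zfp74 -0.088 to 0.030, Zfp146 -0.12 to 0.060.

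The planned count of circular RNAs was not run, since those rows carry no host gene. The 3 libraries per group and the biological coefficient of variation of 24.7% limit the smallest change that can be called.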

Other observations

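In small named families the direction was shared by the Zfp385 and the Zfp354 genes and mixed among the Zfp280 genes. The 3 Zfp385 genes were all above 0 and without overlap, as were 14.3% of all genes with AVE0991 higher. Beside Zfp385c, Zfp385a was at 70.5, 92.6 and 97.3 CPM in vehicle and 99.6, 147 and 113 CPM in AVE0991 (log2 fold change 0.46, SE 0.18). Zfp385b was at 41.1, 35.9 and 41.7 CPM in vehicle and 42.5, 56.7 and 57.7 CPM in AVE0991 (0.40, SE 0.14). In all 3 genes AVE0991 libraries 2 and 3, the ones with the high cerebellar marker sums, were above library 1. The part of cerebellar RNA in these values was not tested, and none of the 3 genes passed with edgeR. Of the Zfp280 genes, Zfp280c and Zfp280d had -0.45 (SE 0.13) and -0.34 (SE 0.14) at 37.8% and 37.7% GC and Zfp280b had 0.18 (SE 0.12) at 47.2% GC. With the GC correction the Zfp280c and Zfp280d values were 0.14 and 0.27. The 3 Zfp354 genes were all below 0, with a median of -0.41, and -0.15 with the correction. Of the 12 genes under the count minimum, Zfp42, a marker of pluripotent cells, had 0 counts in 5 libraries and 1 count in the other.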
